A study of Mus musculus with 14 samples.

Results

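Ribosome biogenesis factors assemble the 2 subunits of the ribosome without staying in the finished particle. The set holds 60 listed genes in 3 classes: 27 genes of the large subunit, 25 of the small subunit and 8 nucleolar genes of small nucleolar ribonucleoproteins and of the nucleolus at large. Every probe set that the array's annotation assigns to one of these genes alone was taken, which gave 122 of 45037 probe sets for 59 of the 60 genes (18193 genes are named on the array). The large-subunit class had 26 genes and 52 probe sets, the small-subunit class 25 genes and 50 probe sets, and the nucleolar class 8 genes and 20 probe sets. Mrto4, which holds the place of a stalk protein on the large subunit, shares its probe set with other annotated genes and was not used.

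Ribosome production starts in the nucleolus, where RNA polymerase I transcribes a long precursor that holds the RNAs of both subunits. Box C/D and box H/ACA small nucleolar ribonucleoproteins modify this precursor, the small-subunit processome folds and cuts its leading part, and the large-subunit particle matures through GTPases, DEAD-box helicases and export adaptors. Genes of this kind are known to be co-regulated in growing cells, for which Myc is a known activator. Erythroid progenitors divide fast and fill with haemoglobin within a few divisions, and inherited defects of ribosome production are known to cause anaemia.

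The arrays measured total RNA of bone marrow erythroid cells from female wild-type C57Bl/6 mice of 8 to 12 weeks, grown out in culture. Stage E1 cells, CFUe-like progenitors (cells that form small erythroid colonies), were taken at day 3 by removal of lineage-positive cells and selection for Kit and CD71. Stage E2 cells, proerythroblasts, were taken from parallel cultures at day 3.5 by removal of lineage-positive and Kit-positive cells and selection for CD71. All cells of both stages were then held for 5.5 h without cytokines, and erythropoietin (EPO), the hormone that erythroid progenitors need for survival, was given for 90 min at 4 U/mL or left out. There were 4 unchallenged and 4 EPO-challenged arrays in stage E1 and 3 of each in stage E2, 14 in all, described in the record as biological replicates. The number of mice behind each array is not given in the sources used here. Stage, selection and culture day go together and cannot be told apart.

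The deposited values are log2 expression less a probe set constant, so a value shows how an array stood against other arrays for the same probe set and not how abundant the transcript was. How precise a value is rests on the number of arrays, and fewer cells of a type and less RNA per cell cannot be told apart in such samples. The median SD between replicates of member probe sets was 0.251 and 0.214 in the unchallenged and EPO-challenged arrays of stage E1, and 0.123 and 0.132 in those of stage E2. Over all probe sets these SDs were 0.0934, 0.0729, 0.0317 and 0.0343. The arrays of stage E1 also spread wider over all probe sets (SD of the values of an array 0.633 to 0.736) than those of stage E2 (0.259 to 0.295). Erythroid markers differed between the stages. Over the 14 probe sets of 9 such genes, the array means were -1.37 to -0.89 in stage E1 and -0.072 to 0.27 in stage E2. Kit, on which the cells were selected, went the other way and was lower in stage E2 by both of its probe sets (log2 -2.69 and -3.98 without EPO). Alas2, the first enzyme of haem synthesis in erythroid cells, was higher (4.22). Markers of neutrophils and monocytes, cells of the lineages to be depleted, were higher in stage E1. Over the 14 probe sets of these 12 genes, the array means were 4.06 to 4.62 in stage E1 and -0.10 to -0.056 in stage E2, with log2 differences (E2 minus E1, without EPO) of -9.47 for Mpo (myeloperoxidase) and -9.49 for S100a8. Whether a marker was absent cannot be read from centred values.

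EPO raised ribosome biogenesis factors of all 3 classes in stage E1, and none fell past the test. Of 122 member probe sets, 35 (25 of 59 genes) were higher in EPO-challenged arrays at an adjusted p under 0.05 and 0 were lower, where 0.804% of all probe sets were higher and 0.36% lower and 1.46% of all genes had a higher probe set (limma, two-sided, adjusted over all 45037). At an unadjusted p under 0.05, 80 were higher (5.02% of all) and 0 lower (3.82% of all). The median log2 change of the members was 0.73, a 1.66-fold rise, against -0.0047 over all probe sets, and 115 of the 122 lay above 0, as did 39% of all. In 65 member probe sets every EPO-challenged array lay above every unchallenged one, which held for 3.28% of all probe sets, and in 0 did they all lie below (2.3% of all). Of the 60 genes, 19 had been picked out as EPO-responsive from these same samples, and for those the count is no independent evidence of a direction. The other 41 were chosen with earlier results of these data known and are no independent check either. Without those 19, 10 of 79 probe sets (9 of 40 genes) passed, and the median change was 0.52. By class these were 3 of 28 large-subunit, 4 of 34 small-subunit and 3 of 17 nucleolar probe sets, with medians of 0.56, 0.53 and 0.46. Differences between the classes are given as a description and were not tested.

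In stage E1, arrays that carry the same number in the labels departed from their groups in like ways, as did unchallenged array 4 and EPO-challenged array 3. A fit with the same-numbered pairs as a replicate block left 5 of the 122 probe sets past the test (0.0977% of all probe sets were higher in that fit). These were Rrs1, Mak16, Wdr43, Pno1 and Rrp12, of which Pno1 and Rrp12 did not pass without the block. The estimates are the same in both fits, and 77 probe sets were at an unadjusted p under 0.05 with the block against 80 without. Leaving out EPO-challenged array 3 left 14 probe sets past the test, unchallenged array 3 left 15, unchallenged array 2 left 19, unchallenged array 1 left 20 and EPO-challenged array 4 left 21. In the same order, 150, 189, 230, 215 and 215 of all 45037 probe sets were higher, against 362 with every array. None of the 14 probe sets of neutrophil and monocyte markers passed in this comparison (median log2 change -0.23), whose array means lay at 4.26 to 4.62 in unchallenged and 4.06 to 4.38 in EPO-challenged cells. Their part in the result was not tested.

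**Figure D1:**
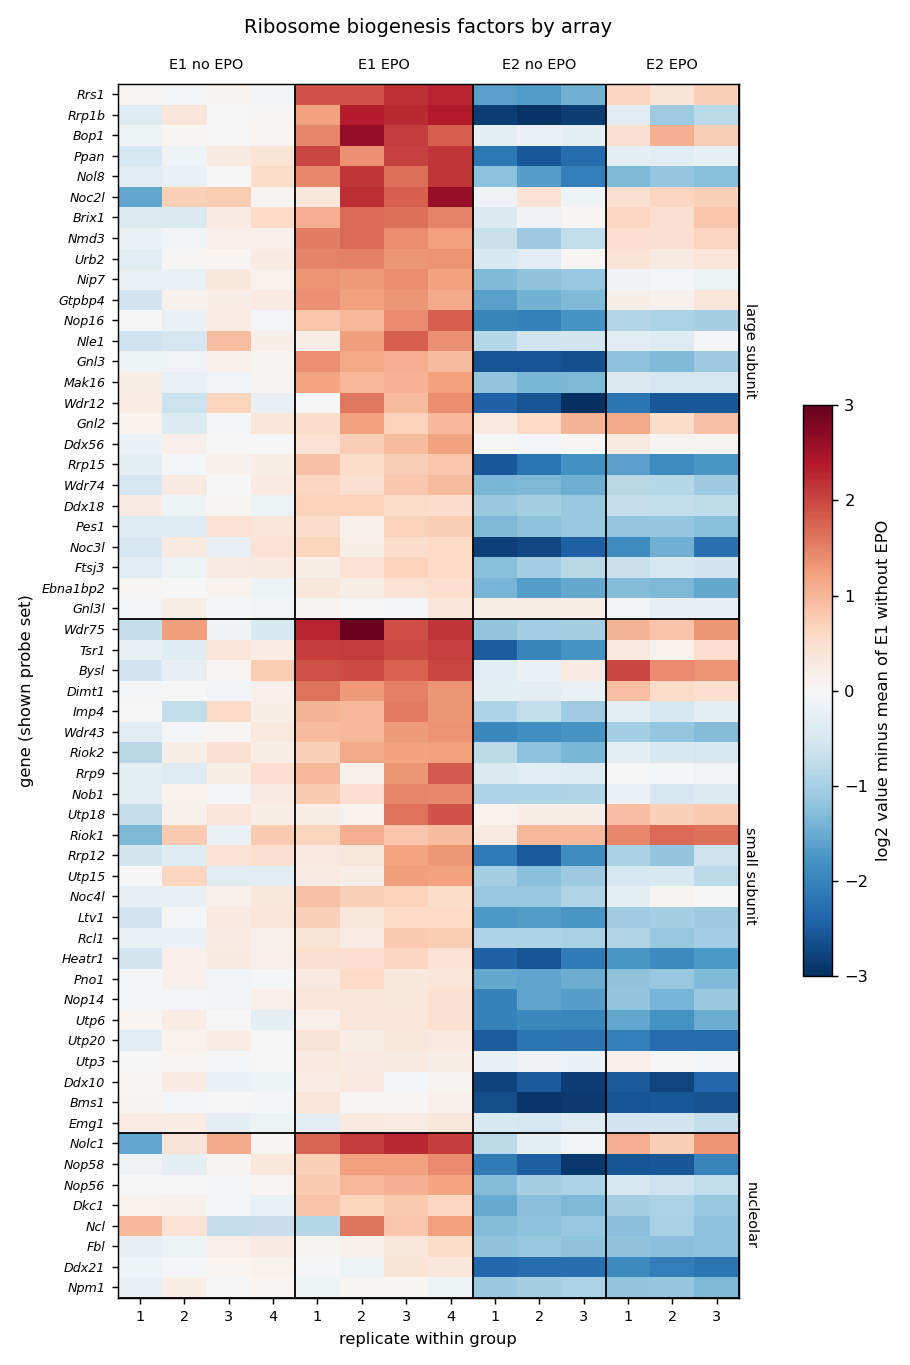
Log2 value of 59 ribosome biogenesis factors (rows, 1 probe set per gene) on each of the 14 arrays (columns), minus the mean of the gene in the 4 unchallenged arrays of stage E1. Red is above and blue below that mean, black lines part the groups and classes, and rows are ordered within a class by the change with EPO in stage E1. Most rows are red in EPO-challenged stage E1 and blue in stage E2, with lighter blue or red once EPO was added there.

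Factors of the large subunit rose in 20 of 52 probe sets (12 of 26 genes) in stage E1, with a median log2 change of 0.85. For a gene with several probe sets, the values given are those of the probe set with the largest SD over the 14 arrays, a choice that is not independent of the change. Rrs1 (1416998_at), which helps to dock the particle of the smallest ribosomal RNA on the large subunit, stood at 0.11, 0.018, 0.16 and -0.018 in the 4 unchallenged arrays and at 1.96, 1.96, 2.26 and 2.36 in the 4 EPO-challenged arrays. The groups lay far apart, and the log2 change was 2.07 ± 0.10 (SE, 4.19-fold, adjusted p = 0.00093). Ppan (1423703_at), a relative of Brix1 in early large-subunit particles, stood at -0.10, 0.29, 0.70 and 0.85 without EPO and at 2.44, 1.81, 2.48 and 2.57 with EPO. EPO-challenged array 2 was the lowest of its group and still lay above every unchallenged array, and the change was 1.89 ± 0.26 (SE, 3.71-fold, adjusted p = 0.0254). Bop1 (1430491_at), which with Pes1 and Wdr12 makes up the PeBoW complex, lay at -0.19, -0.00090, -0.061 and 0.00090 without EPO and at 1.40, 2.58, 2.05 and 1.74 with EPO, a change of 2.004 ± 0.24 (SE, 4.01-fold, adjusted p = 0.0158). Its second probe set gave 0.52 and did not pass (adjusted p = 0.861), and its groups overlapped.

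Nmd3 (1437238_x_at), the adaptor that carries the large subunit out of the nucleus, stood at -0.063, 0.063, 0.29 and 0.29 in unchallenged and at 1.68, 1.84, 1.54 and 1.39 in EPO-challenged arrays, a change of 1.47 ± 0.12 (SE, 2.77-fold, adjusted p = 0.00459). A second probe set of Nmd3 rose by 1.36, while 2 others did not pass (0.59 and 0.0033). Rrp1b, a nucleolar homologue of a yeast factor of large-subunit particles, rose in all 3 of its probe sets, by 2.04, 2.21 and 2.40. Its EPO-challenged array 1 stood at 2.15, where the other 3 stood between 3.16 and 3.32, and its unchallenged arrays stood between 0.55 and 1.29. Nol8, a nucleolar factor of the large subunit, rose in all 3 of its probe sets too (1.84, 1.76 and 1.47). In the fit with the replicate block, the adjusted p of the probe sets shown was 0.0495 for Rrs1, 0.066 for Rrp1b, 0.0711 for Nol8, 0.0902 for Bop1, 0.1 for Nmd3 and 0.101 for Ppan, so that of these 6 genes Rrs1 stayed under the threshold. The smallest changes shown in the class were those of Gnl3l, a nucleolar GTPase (0.10, adjusted p = 0.9998), and Ebna1bp2, a factor of early large-subunit particles (0.36, adjusted p = 0.138).

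By subcomplex, few of the PeBoW and nucleolar complex probe sets passed. Of the 3 genes of the PeBoW complex (7 probe sets), Bop1 passed, while the Pes1 probe sets gave 0.52 and 0.60 and those of Wdr12 ranged from -0.028 to 0.98, with no adjusted p under 0.05. Of the 4 nucleolar GTPases (9 probe sets), Gnl3, known as nucleostemin, rose by 1.14 and Gtpbp4 rose in 2 of 3 probe sets (1.27 and 1.34), and the 3 probe sets of Gnl2 (0.16 to 0.86) and the 2 of Gnl3l did not pass. Both nucleolar complex genes, Noc2l and Noc3l, missed the threshold in all 4 probe sets, at 0.29 to 1.74, and the replicates of the most responsive one, of Noc2l, spread from -2.06 to 0.27 without EPO and from -0.15 to 2.12 with EPO. The DEAD-box helicase Ddx18 rose in 2 of 3 probe sets (0.79 and 0.62), and the 1 probe set of Ddx56 gave 0.84 with an adjusted p of 0.0937.

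Factors of the small subunit rose in 11 of 50 probe sets (9 of 25 genes), with a median log2 change of 0.67. Tsr1 (1433502_s_at), a late factor of the small-subunit precursor, stood at 0.065, -0.065, 0.66 and 0.52 without EPO and at 2.37, 2.39, 2.26 and 2.35 with EPO, and changed by 2.05 ± 0.17 (SE, 4.14-fold, adjusted p = 0.00434). The EPO-challenged arrays lay closer together than the unchallenged ones. Bysl (bystin, 1450742_at), which acts at the same late step, stood at -0.91, -0.56, -0.27 and 0.43 in unchallenged and at 1.57, 1.62, 1.44 and 1.68 in EPO-challenged arrays, a change of 1.91 ± 0.27 (SE, 3.75-fold, adjusted p = 0.0295). Here the unchallenged arrays were the scattered ones. Dimt1 (1426290_at), the enzyme that dimethylates the small-subunit RNA, stood at 0.021, 0.066, -0.021 and 0.22 and at 1.71, 1.34, 1.57 and 1.39, a change of 1.43 ± 0.095 (SE, 2.7-fold, adjusted p = 0.00243), and its second probe set did not pass (0.29). When each array of stage E1 was left out in turn, Rrs1, Nmd3, Tsr1, Dimt1 and Nop56 passed in all 8 fits, while Dkc1 passed in 6, Bop1 and Wdr43 in 4, Ppan, Nol8 and Utp3 in 2, and Rrp1b, Bysl, Nop14 and Nop58 in 1. Leaving out unchallenged array 3 or EPO-challenged array 3 ended the call of each of these 10 genes (adjusted p up to 0.154). Under the replicate block the adjusted p was 0.0779 for Tsr1, 0.13 for Bysl and 0.0681 for Dimt1.

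All 4 genes of UTP-A in the set, the subcomplex that first binds the precursor RNA, had a probe set that rose in stage E1, 5 of 9 in all, and the 9 changes ranged from 0.51 to 2.35. Wdr43 (1428390_at) stood at 0.91, 1.20, 1.27 and 1.51 without EPO and at 2.17, 2.20, 2.50 and 2.58 with EPO, a change of 1.14 ± 0.15 (SE, 2.2-fold, adjusted p = 0.0245) that kept an adjusted p of 0.0495 with the block. Heatr1 passed in 1 of 3 probe sets (1.96), Utp15 in 1 of 2 (1.07) and Wdr75 in 1 of 2 (1.05). Of the 5 probe sets of the UTP-B genes Utp6 and Utp18, a subcomplex that joins later, 0 passed, with changes of 0.082 to 0.96 (at an unadjusted p under 0.05, 3 were higher). Among the 9 late factors of the small-subunit precursor (19 probe sets), Tsr1, Bysl and Dimt1 passed in 4 probe sets, and Nob1 (the endonuclease of the final cut), its partner Pno1, Ltv1, Rrp12, Riok1 and Riok2 did not. Smaller changes that passed were those of Nop14, at 0.38 ± 0.058 (SE, 1.3-fold, adjusted p = 0.0377), and Utp3, at 0.25 ± 0.033 (SE, 1.19-fold, adjusted p = 0.0245), with 0.066 and 0.135 under the block. Emg1, a methyltransferase of the small-subunit RNA (0.13), and Bms1, the GTPase of the processome (0.14), showed the smallest changes among the probe sets shown.

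The nucleolar class rose in 4 of 20 probe sets (4 of 8 genes), with a median log2 change of 0.58. Nop56 and Nop58 belong to the core of box C/D particles, which guide methylation of ribosomal RNA. Nop56 (1426533_at) stood at 0.68, 0.67, 0.64 and 0.73 without EPO and at 1.46, 1.67, 1.74 and 1.87 with EPO, a change of 1.01 ± 0.082 (SE, 2.01-fold, adjusted p = 0.00435). Nop58 (1450986_at) stood at 2.19, 1.99, 2.37 and 2.61 and at 3.01, 3.51, 3.51 and 3.70, a change of 1.14 ± 0.19 (SE, 2.21-fold, adjusted p = 0.0459). Dkc1 (dyskerin, 1438016_at), the pseudouridine synthase of box H/ACA particles, rose by 0.73 ± 0.092 (SE, 1.66-fold, adjusted p = 0.0197) in 1 of its 3 probe sets. None of these overlapped between groups, and none stayed under the threshold with the block (adjusted p = 0.066, 0.109 and 0.0807). The helicase Ddx21 rose in one probe set (0.89, adjusted p = 0.0178, 0.156 with the block) and not in the other (0.13, adjusted p = 0.9998). The main structural proteins of the nucleolus did not pass. Npm1 (nucleophosmin) stood at 0.83, 1.25, 1.04 and 1.12 without EPO and at 0.93, 1.11, 1.10 and 0.94 with EPO, a change of -0.042, and its second probe set gave -0.037. Fbl (fibrillarin, the methyltransferase of box C/D particles) gave 0.19 and 0.28, and the 5 probe sets of Ncl (nucleolin) gave 0.070 to 0.70, with 0 of these 9 past the test. Nolc1, a chaperone of these particles, showed a large but scattered difference, of 1.49 to 2.05 in 3 probe sets, and missed the threshold (lowest adjusted p = 0.0758).

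**Figure D2:**
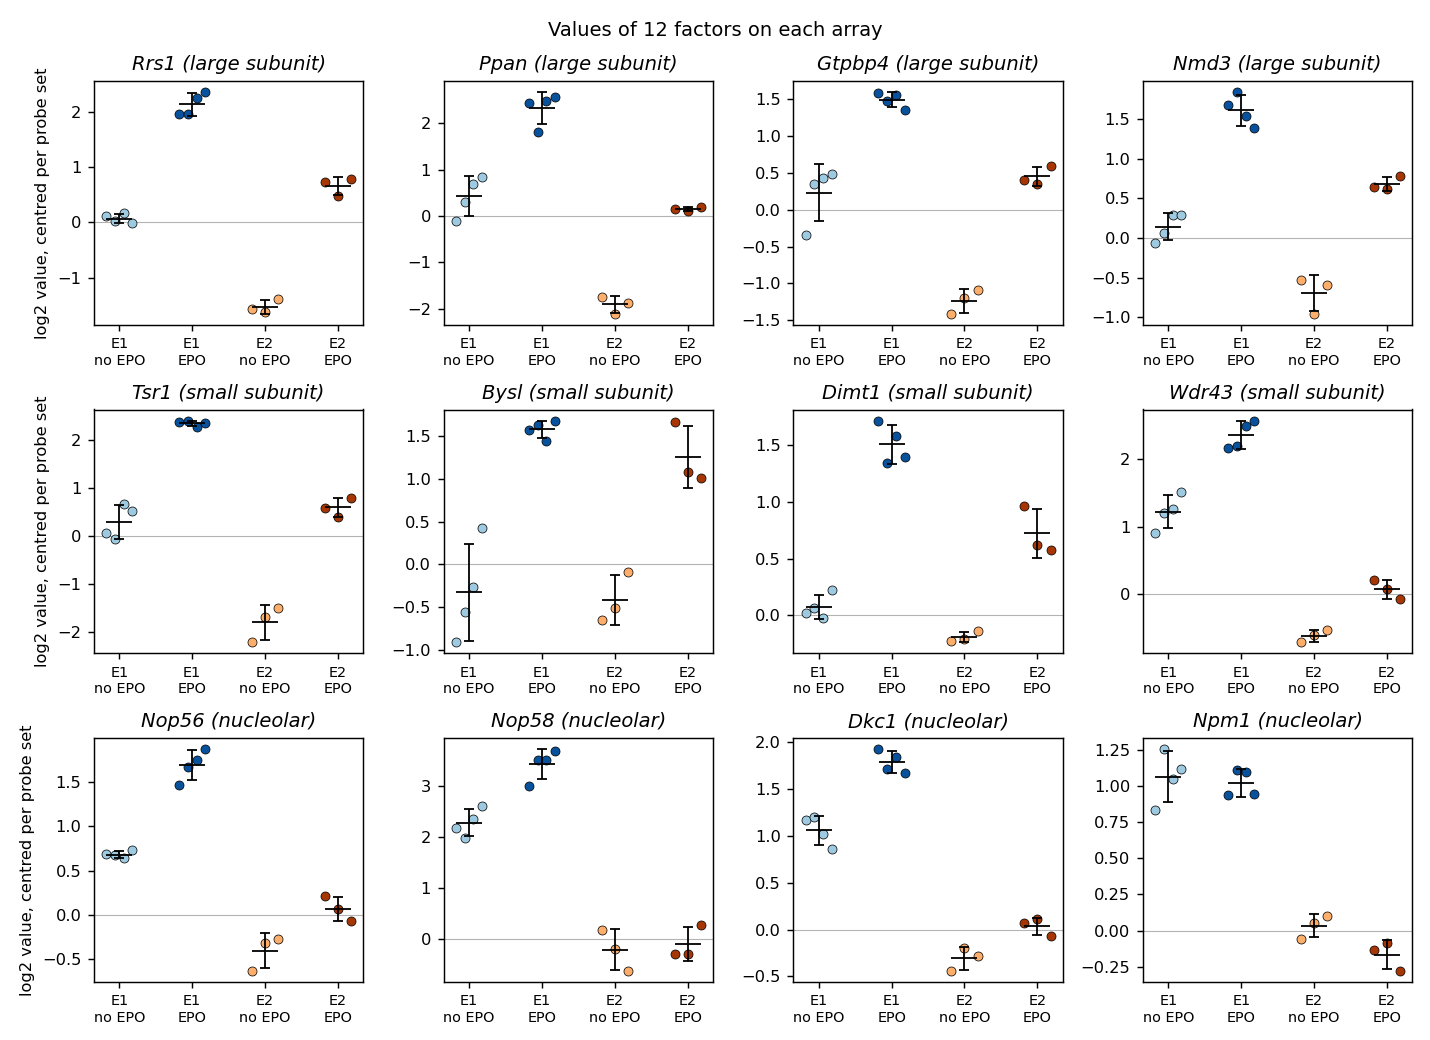
Log2 values, centred per probe set, of 12 factors (4 of the large subunit, 4 of the small subunit and 4 nucleolar) in the 4 groups. Points are arrays, and bars show the mean and SD of each group (n = 4 in stage E1 and n = 3 in stage E2). The EPO-challenged arrays lie above the unchallenged ones of the same stage for the 8 subunit factors, while Nop58 and Npm1 overlap in stage E2.

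The promoters of these genes were searched for CACGTG, the E-box that Myc with its partner Max is known to bind, which reads the same on both strands. RefSeq promoters (build GRCm38.p6) matched 51 of the 60 genes by symbol, and Bop1, Fbl, Gnl2, Gnl3l, Mak16, Npm1, Rrp12, Rrs1 and Utp6 had none. In the 250 bases before the start, 3 of 51 members (5.88%) held it, Nmd3, Utp18 and Imp4, against 6.86% of all 27025 genes and 8.73% of the 14452 genes named on the array. The share among members was near that of all genes. The 2 of these genes with a probe set past the test for EPO are shown with the motif in capitals: Nmd3, which rose in both stages, at chr3:69721805-69722054 on the plus strand, and Utp18, which passed in stage E2, at chr11:93885767-93886016 on the minus strand.
Nmd3: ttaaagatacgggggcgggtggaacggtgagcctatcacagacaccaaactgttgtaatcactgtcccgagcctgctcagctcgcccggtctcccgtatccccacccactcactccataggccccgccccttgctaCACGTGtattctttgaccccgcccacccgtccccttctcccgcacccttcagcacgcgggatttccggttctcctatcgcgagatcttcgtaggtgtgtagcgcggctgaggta
Utp18: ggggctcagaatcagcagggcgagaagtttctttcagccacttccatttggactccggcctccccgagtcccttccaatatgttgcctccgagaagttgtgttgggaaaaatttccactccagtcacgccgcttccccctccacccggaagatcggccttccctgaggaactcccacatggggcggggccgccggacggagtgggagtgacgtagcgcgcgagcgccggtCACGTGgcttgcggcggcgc
The motif began 114 bases before the start of Nmd3 and 20 bases before that of Utp18.

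In stage E2, EPO again raised factors of both subunits, and 2 of the 20 nucleolar probe sets. Of 122 member probe sets, 37 (27 of 59 genes) were higher and 1 was lower, where 2.54% of all probe sets were higher and 2.08% lower and 4.53% of all genes had a higher probe set. The median log2 change was 0.46, a 1.38-fold rise, against -0.0049 over all probe sets, and 102 of 122 lay above 0, as did 37% of all. In 78 member probe sets every EPO-challenged array lay above every unchallenged one (9.42% of all), and in 7 every one lay below (13.7% of all). By class, 18 of 52 large-subunit probe sets (13 genes), 17 of 50 small-subunit probe sets (12 genes) and 2 of 20 nucleolar probe sets (2 genes) rose, with medians of 0.46, 0.57 and 0.10. Leaving out unchallenged array 2 left 18 probe sets higher (504 of all 45037), and leaving out EPO-challenged array 2 left 24 (843 of all). With every array, 1146 of all were higher. None of the neutrophil and monocyte markers passed here either (median log2 change -0.01).

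Rrs1 stood at -1.56, -1.63 and -1.39 in the 3 unchallenged arrays of stage E2 and at 0.72, 0.48 and 0.78 in the 3 EPO-challenged ones, a change of 2.19 ± 0.11 (SE, 4.56-fold, adjusted p = 0.00279). Ppan stood at -1.73, -2.10 and -1.87 without EPO and at 0.15, 0.10 and 0.20 with EPO, a change of 2.05 ± 0.10 (SE, 4.14-fold, adjusted p = 0.00279). Both were set well apart by EPO in each stage. Gtpbp4, a nucleolar GTPase of large-subunit particles, stood at -1.41, -1.19 and -1.09 and at 0.41, 0.35 and 0.60, a change of 1.68 ± 0.11 (SE, 3.21-fold, adjusted p = 0.00483), and passed in all 3 of its probe sets. Rrp1b rose by 2.15 ± 0.20 (SE, 4.42-fold, adjusted p = 0.0122) in the probe set shown, while its other 2 gave 0.17 and 0.57 and did not pass, and leaving out unchallenged array 2 or 3 ended the call (adjusted p up to 0.0612). Among the GTPases, Gnl3 rose by 1.38, and Gnl3l was the member that fell: it stood at 0.18, 0.19 and 0.19 without EPO and at -0.076, -0.24 and -0.24 with EPO, a change of -0.37 ± 0.050 (SE, 1.29-fold lower, adjusted p = 0.0282). Its second probe set gave 0.22 and did not pass, and the fall of the first was lost when any array of stage E2 other than EPO-challenged array 1 was left out (adjusted p up to 0.11).

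Among small-subunit factors, Tsr1 stood at -2.21, -1.69 and -1.49 without EPO and at 0.58, 0.41 and 0.80 with EPO, a change of 2.39 ± 0.22 (SE, 5.23-fold, adjusted p = 0.0116). Wdr75 of UTP-A stood at -0.60, -0.47 and -0.42 and at 1.60, 1.45 and 1.90, a change of 2.14 ± 0.13 (SE, 4.42-fold, adjusted p = 0.00398). The same probe set of Wdr75 gave 2.35 in stage E1 without passing (adjusted p = 0.0937), where its unchallenged arrays ran from -0.13 to 1.84. Bysl rose by 1.67 ± 0.25 (SE, 3.18-fold, adjusted p = 0.0349), and Noc4l, which pairs with Nop14 in the processome, rose by 1.005 ± 0.12 (SE, 2.01-fold, adjusted p = 0.0225). Leaving out any 1 array of stage E2 ended the call of Bysl (adjusted p = 0.0637 to 0.129), 4 of 6 ended that of Noc4l (unchallenged arrays 1 and 2, EPO-challenged arrays 2 and 3) and 2 that of Tsr1 (unchallenged array 2 and EPO-challenged array 1, up to 0.0542). UTP-A passed in 6 of 9 probe sets (4 of 4 genes), UTP-B in 1 of 5 (Utp18, 0.65), and the late factors in 7 of 19 (Tsr1, Bysl, Dimt1, Ltv1 and Nob1). In the nucleolar class, Ddx21 rose by 1.14 in one probe set and Nolc1 by 1.14 in one. The box C/D core had 0 of 5 probe sets past the test (-0.09 to 0.54), against 2 of 5 in stage E1, and Npm1, Ncl and Fbl again had 0 of 9.

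**Figure D3:**
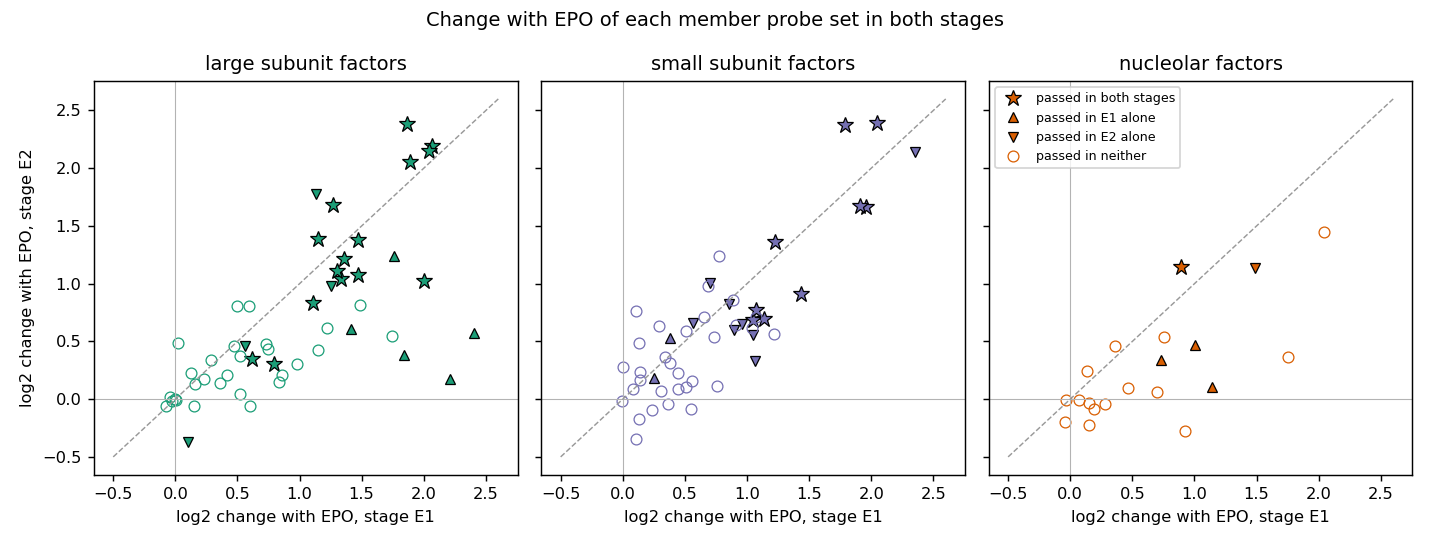
Log2 change with EPO of each member probe set in stage E1 (horizontal axis) and in stage E2 (vertical axis), by class. Symbols show in which stage the probe set passed the test, and the dashed line marks equal change. Large- and small-subunit factors spread along the line up to 2.4, and 16 of the 20 nucleolar probe sets lie below it. Many probe sets of the subunit classes lie below it too, and the median difference between stages was below 0 in every class.

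The stages shared most of their passed member probe sets: 25 were higher with EPO in both, which is 71.4% of the 35 of stage E1 and 67.6% of the 37 of stage E2. The same overlap over all probe sets was not counted, so it cannot be called particular to the members. By gene, 19 passed in both stages, 6 in stage E1 and not in stage E2 (Urb2, Dkc1, Nop56, Nop58, Nop14 and Utp3), 8 in stage E2 and not in stage E1 (Brix1, Nop16, Nolc1, Ltv1, Nob1, Noc4l, Rrp9 and Utp18) and 26 in neither. Passing in one stage and not in the other is no test of a difference, so the stage by EPO interaction was fitted on the 14 arrays. Of the 122 probe sets, 2 passed it, both with the smaller rise in stage E2, and 0 with the larger, where 0.18% of all probe sets passed as higher and 0.235% as lower. At an unadjusted p under 0.05, 3 were higher and 20 lower (3.24% and 3.95% of all). Neither is the probe set shown for its gene, and both are named here after their values were seen. For Ddx18, the change was 0.79 in stage E1 and 0.30 in stage E2, a difference of -0.49 ± 0.054 (SE, adjusted p = 0.0034). Over the 3 probe sets of Ddx18 the difference ran from -0.49 to 0.47, so they did not share a direction. For Rrp1b the values were 2.21 and 0.17, a difference of -2.04 ± 0.36 (SE, adjusted p = 0.0388), while the probe set shown for Rrp1b differed by 0.10 ± 0.40. Both calls were lost with the replicate block (adjusted p = 0.0823 for Ddx18 and 0.148 for Rrp1b) and with trend and robust options (0.156 and 0.0537), and after quantile normalization neither passed and the difference of Ddx18 turned positive (0.23). For gene means neither passed (Ddx18 -0.097, adjusted p = 0.92, and Rrp1b -1.26, adjusted p = 0.054). The call of Ddx18 was also lost with a low-variance filter (adjusted p = 0.125) and with a fold of at least 1.5. Leaving out 1 array at a time, Ddx18 passed in all 14 fits and Rrp1b in 4, where leaving out any array other than unchallenged arrays 2 and 4 and EPO-challenged array 2 of stage E1 and EPO-challenged array 3 of stage E2 ended the call (adjusted p up to 0.114).

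For the nucleolar genes that passed in stage E1 alone, the interaction did not pass. It was -1.04 ± 0.33 for Nop58 (adjusted p = 0.354), -0.53 ± 0.15 for Nop56 (adjusted p = 0.25) and -0.39 ± 0.13 for the probe set shown of Dkc1 (adjusted p = 0.416). The median interaction was -0.20 over large-subunit, -0.21 over small-subunit and -0.33 over nucleolar probe sets, and all 3 medians turned positive when the arrays were given the same distribution by quantile normalization (0.44, 0.56 and 0.0088), in which 29 member probe sets passed as higher in stage E2 (2.11% of all) and 1 as lower. Quantile normalization gives the arrays of both stages one spread, and their deposited spreads differ. Within each stage the medians of all 3 classes stayed above 0 under every scaling run.

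**Figure D4:**
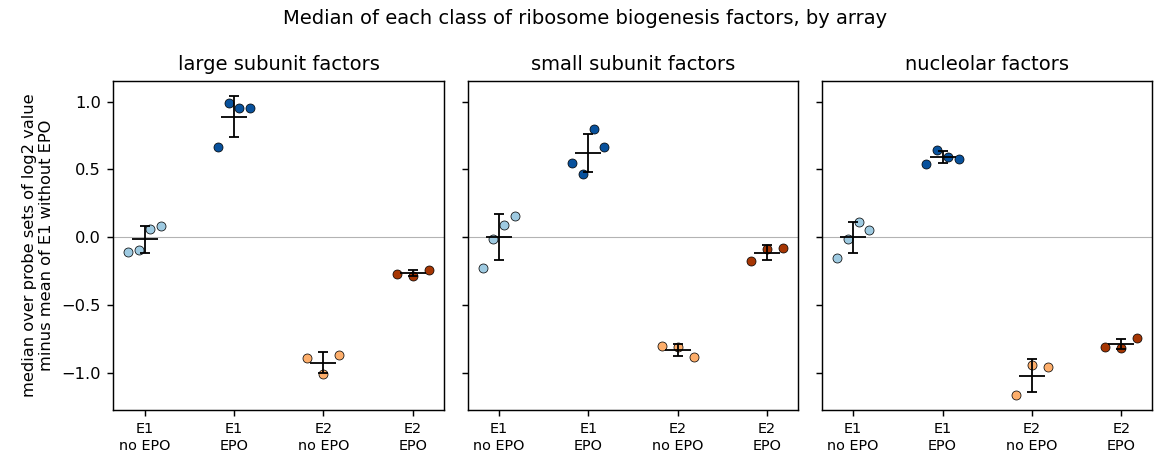
Median over the probe sets of a class of the log2 value minus the mean of the 4 unchallenged arrays of stage E1, for each array. Points are arrays, and bars show the mean and SD of each group (n = 4 in stage E1 and n = 3 in stage E2). With EPO, the large- and small-subunit medians of stage E2 rose from about -0.9 and -0.8 to above -0.3. The nucleolar median rose less, from between -1.16 and -0.94 to between -0.81 and -0.74.

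The class medians were also read array by array. Relative to unchallenged stage E1, EPO-challenged stage E1 arrays had medians of 0.66 to 0.99 for the large-subunit class, 0.47 to 0.80 for the small-subunit class and 0.54 to 0.65 for the nucleolar class. In unchallenged stage E2 the medians were -1.01 to -0.87, -0.88 to -0.80 and -1.16 to -0.94. In EPO-challenged stage E2 they were -0.28 to -0.24, -0.18 to -0.080 and -0.81 to -0.74. The small-subunit medians of EPO-challenged stage E2 thus fell within the range of the 4 unchallenged arrays of stage E1 (-0.23 to 0.16), the large-subunit ones lay just below that range (-0.11 to 0.081), and the nucleolar ones lay well below it (-0.15 to 0.11).

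Without EPO, ribosome biogenesis factors were lower in stage E2 than in stage E1. Of 122 member probe sets, 77 (49 of 59 genes) were lower and 0 higher, where 10.8% of all probe sets were lower and 10.1% higher and 17.1% of all genes had a lower probe set. At an unadjusted p under 0.05, 87 were lower and 3 higher (21.6% and 13.4% of all). The median log2 difference was -0.92, against -0.027 over all probe sets. The nucleolar class was lower in 17 of 20 probe sets (8 of 8 genes), the large-subunit class in 32 of 52 (22 of 26 genes) and the small-subunit class in 28 of 50 (19 of 25 genes), with medians of -1.02, -0.96 and -0.91. Under EPO, 90 probe sets (56 genes) were lower and 2 higher, where 12% of all were lower and 10.3% higher and 18.4% of all genes had a lower probe set, with a median of -1.14. By class these were 37 of 52, 35 of 50 and 18 of 20 probe sets of the large-subunit, small-subunit and nucleolar classes, and 74 probe sets were lower in both comparisons. How many of all probe sets were lower in both was not counted. The 2 comparisons set different arrays against each other, but both were fitted on all 14 arrays with one estimate of the spread. Neutrophil and monocyte markers fell from stage E1 to E2 as well, in 9 of 14 probe sets in both comparisons, by log2 differences that reached -9.49, and so did Kit, on which the cells were selected. Markers of B and T cells were lower in 1 of 18 probe sets, and of 9 for megakaryocytes and mast cells, 4 were higher and 3 lower without EPO. Their part in the lower ribosome biogenesis values of stage E2 was not tested.

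The largest falls without EPO among the probe sets shown were in Rrp1b, Bms1, Wdr12 and Ddx10. Bms1, the processome GTPase, stood between 2.55 and 2.96 in all 8 arrays of stage E1 and between -0.33 and 0.063 in all 6 of stage E2. The change with EPO did not pass in either stage (0.14 and 0.24), and the stage difference was -2.82 ± 0.083 (SE, adjusted p = 4.92e-09). Ddx10, a DEAD-box helicase of the processome, was likewise high in stage E1, at 2.56, 2.77, 2.34 and 2.38 in unchallenged stage E1 and -0.27, 0.0023 and -0.32 in unchallenged stage E2, a difference of -2.71 ± 0.13 (SE, adjusted p = 1.43e-07). Wdr12 of the PeBoW complex, at 2.63, 1.76, 3.07 and 2.19 and -0.010, -0.18 and -0.75, differed by -2.73 ± 0.39 (SE, adjusted p = 0.00037). Rrp1b, which also rose with EPO in both stages, differed by -2.87 ± 0.28 (SE, adjusted p = 2.5e-05). Under EPO the largest falls among the probe sets shown were those of Nop58 (-3.53), Wdr12 (-3.41), Nol8 (-3.10) and Rrp1b (-2.77), and over all member probe sets the largest fall was that of another probe set of Rrp1b (-4.09).

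Npm1, Ncl and Fbl, which did not pass for EPO in either stage, were all lower in stage E2. Without EPO, Npm1 stood at 0.83, 1.25, 1.04 and 1.12 in stage E1 and at -0.055, 0.055 and 0.10 in stage E2, a difference of -1.03 ± 0.091 (SE, 2.04-fold lower, adjusted p = 1.11e-05). Fbl fell in both probe sets (-0.75 and -1.19) and Ncl in 4 of 5 (-0.51 to -1.78). For a few factors of the small subunit the difference between stages did not pass. Bysl differed by -0.087 ± 0.28 and Dimt1 by -0.26 ± 0.11 without EPO, and neither passed (adjusted p = 0.818 and 0.115). The 5 probe sets of Riok1, a kinase of the late particle, ranged from 0.02 to 1.12 with 0 past the test. Under EPO the 2 higher probe sets were 1 of Riok1 (0.67) and 1 of Ddx18 (0.40), and the other 2 probe sets of Ddx18 were lower (-1.15 and -1.35).

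**Figure D5:**
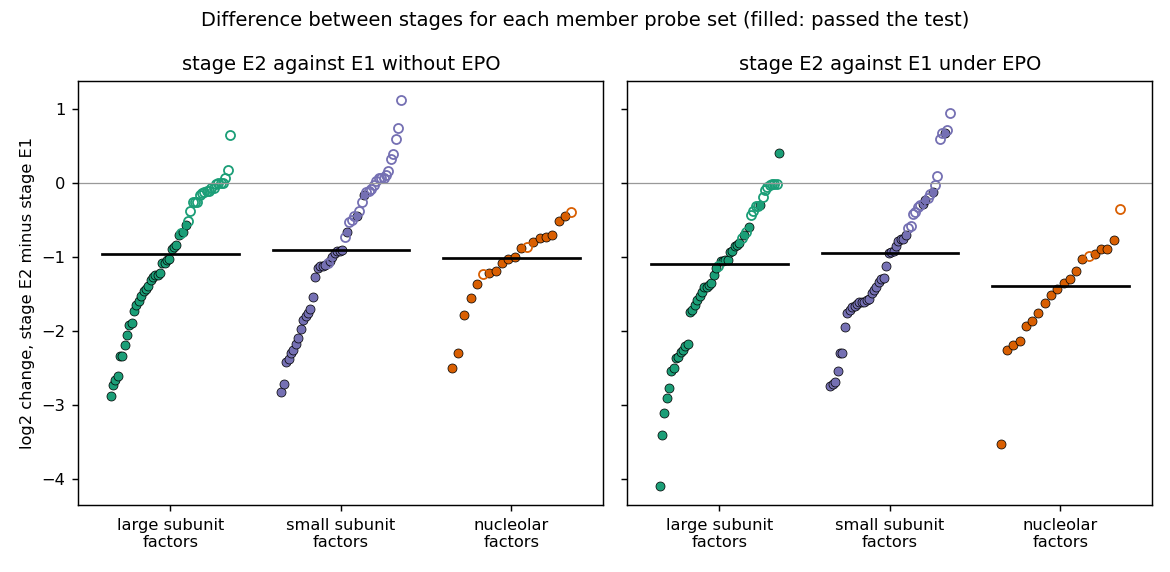
Log2 difference between stages (E2 minus E1) of each member probe set, without EPO (left) and under EPO (right), sorted within each class. Filled points passed the test, open points did not, and the black line is the class median. All 20 nucleolar probe sets lie below 0 in both panels, and the class medians run from -0.91 to -1.39.

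Other genes of ribosome production were counted the same way. Of 143 probe sets of 70 other biogenesis genes, 11 rose and 0 fell in stage E1 (median 0.33, where 0.804% of all probe sets rose and 0.36% fell), the largest changes being those of Nop2, a methyltransferase of the large-subunit RNA (1.67), Pwp2 of UTP-B (1.45), Nol9 (1.44) and Utp25 (1.05). In stage E2, 15 rose and 1 fell (median 0.13, where 2.54% of all rose and 2.08% fell). Of 33 probe sets of 13 genes of the RNA polymerase I machinery, 1 rose in stage E1, Polr1b, a core subunit of the enzyme (1.95), and 3 rose in stage E2, Polr1b (1.09), the initiation factor Rrn3 (0.87) and Taf1a (0.11), while Polr1a fell (-0.32). Of 100 probe sets of 46 cytosolic ribosomal protein genes, 2 rose in stage E1, of Rpl12 (3.02) and Rps10 (1.54), with a median of 0.02, and 4 rose in stage E2. Ribosomal protein genes have many near-identical copies in the genome, so their probe sets are uncertain. Between the stages without EPO, 62 of the 143 were lower and 4 higher (median -0.42), 20 of the 33 were lower and 2 higher (median -0.72), and 12 of the 100 were lower and 5 higher (median -0.038), where 10.8% of all probe sets were lower and 10.1% higher.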

How the data were processed

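Total RNA of the 14 samples was hybridised to Affymetrix mouse genome arrays, 1 array per sample. The deposited table holds log2 values that the authors made with GC-RMA in GeneSpring after scanning (version not given in the sources used here). The base 2 is the usual one of GC-RMA and is not stated in the table. In 35185 of 45101 probe sets (78%) the values nearest to 0 on either side had equal size within 2e-06, so a median over a set of arrays that is larger than these 14 had been subtracted from each probe set. Levels, and a filter on low levels, could therefore not be had.

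After 64 control probe sets were left out, 45037 were tested in R 4.3.3 with limma 3.58.1 (files were read with data.table, version 1.17.8). The EPO comparison used the 8 arrays of stage E1 or the 6 of stage E2, and all 14 arrays entered the interaction and stage comparisons. The SEs and p-values of the interaction and stage comparisons take the spread between replicates as equal in both stages. It was wider in stage E1. Tests were two-sided, with Benjamini-Hochberg adjustment over all probe sets and a threshold of 0.05. The annotation names 1 gene for 34945 probe sets, several for 932 and none for 9160. P-values measure the spread between these samples, which the record calls biological replicates. The fits were tested on simulated data with independent normal errors of equal SD in every group. Such data hold neither the wider spread of stage E1 nor any pairing of arrays.

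Same-numbered arrays of stage E1 correlated in their deviations from the group means at 0.152 to 0.195 in all 4 pairs, the numbers coming from the labels. Unchallenged and EPO-challenged arrays of unlike number ran from -0.236 to 0.203. The highest of these, unchallenged array 4 with EPO-challenged array 3, lay above every same-numbered pair. In stage E2 the 3 pairs gave -0.061 to -0.016 and were not taken as pairs.

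The members and the gene lists were chosen with earlier results of these data known. Genes were named by a rule: for each stage of EPO, the largest changes past the test per class, every member that fell, the smallest changes of stage E1 (2 per class), the smallest p of the interaction, and the 4 largest falls between stages. Alternatives were quantile normalization, centring on the array median, a replicate block, trend and robust options, array weights, a low-variance filter, a fold of at least 1.5, gene means, a joint fit, the methods' t-test, and leaving out each array. Culture days are those of the labels. The methods text gives day 3.5 for the stage E1 cultures.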

Additional observations from a re-analysis of the deposited data

Results flagged for a closer look

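In groups of 4 arrays, 5 of 58 sets of values held 1 array that stood apart from the others, by a gap past Dixon's critical share of the group's range, where chance gives about 1 in 20. Ppan in EPO-challenged stage E1 stood at 1.81 in array 2 and at 2.44 to 2.57 in the others, a gap of 0.829 of the range. Rrp1b in EPO-challenged stage E1 stood at 2.15 in array 1 and at 3.16 to 3.32 in the others (0.868 of the range). The median of the large-subunit factors was also lowest in EPO-challenged array 1, at 0.66 against 0.95 to 0.99 (0.867 of the range). Gtpbp4 in unchallenged stage E1 stood at -0.35 in array 1 and at 0.36 to 0.48 in the others (0.851 of the range). Gnl3l in unchallenged stage E1 stood at 0.18 in array 2 and at -0.063 to -0.023 in the others (0.837 of the range).

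The change with EPO differed between the stages, by the test of the stage by EPO interaction in limma, for 1 probe set each of Ddx18 (log2 difference of -0.49 in 1416071_at, adjusted p = 0.0034) and Rrp1b (-2.04 in 1452118_at, adjusted p = 0.0388), both with the smaller rise in stage E2. Both calls were lost with the replicate block (adjusted p = 0.0823 and 0.148), with the trend and robust options (0.156 and 0.0537) and after quantile normalization (0.146 and 0.293), and that of Rrp1b in 10 of the 14 fits that left out 1 array. Neither passed for gene means (0.92 and 0.054). That of Ddx18 was also lost with the low-variance filter (0.125) and a fold of at least 1.5. The 3 probe sets of Ddx18 differed by -0.49 to 0.47.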

How the results depend on the processing

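No alternative turned a count of changed probe sets with EPO in stage E1 toward lower: 0 fell in every setting, and 35 rose as reported. Of the 122 member probe sets, 23 rose after quantile normalization (0.624% of all probe sets, against 0.804% as reported). Array weights gave 58 (2.5% of all), and a joint fit on all 14 arrays gave 58 (2.36% of all). The methods' one-tailed t-test without adjustment gave 87 (2824 of all 45037). Leaving out 1 array gave 14 to 26 (150 to 365 of all). In stage E2, 37 rose (2.54% of all), with 58 after the low-variance filter (1877 of the 22518 probe sets it kept). The methods' t-test gave 77 (4100 of all 45037), and with Benjamini-Hochberg adjustment it gave 23 (564 of all). With 1 array left out, 18 to 27 rose (504 to 843 of all). The 1 probe set that fell in stage E2 was lost (0) after quantile normalization, in the replicate block and with a fold of at least 1.5. It was also lost for gene means, in the joint fit and by the adjusted t-test. By the unadjusted t-test 5 fell (5639 of all), and with 1 array left out 0 to 1 did.

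With the replicate block, 5 member probe sets rose with EPO in stage E1 (0.0977% of all) and 14 in stage E2 (0.586% of all). The interaction left 0 of its 2 lower probe sets (24 of all 45037 were lower). The same-numbered arrays of stage E2 did not deviate together, so that the block there pairs arrays by number alone. For the stage comparisons the block joins arrays of both stages by number, and it changed no call of the genes named there. Same-numbered arrays of stages E1 and E2 correlated in their deviations from the group means at -0.126 to 0.093. Those unchanged calls are therefore no check on a pairing.

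The interaction, with 0 higher and 2 lower, gave 29 higher and 1 lower after quantile normalization (2.11% and 1.71% of all). Array weights gave 1 and 4 (388 and 481 of all 45037). The interaction gave 0 lower with the trend and robust options (71 of all 45037) and for gene means (56 of all 18193). It gave 1 lower with a fold of at least 1.5 (94 of all 45037). With 1 array left out it gave 0 to 1 higher and 1 to 3 lower (39 to 114 and 51 to 217 of all 45037). Without EPO, 0 were higher and 77 lower in stage E2 (10.1% and 10.8% of all). Quantile normalization gave 2 higher (5819 of all 45037), and the low-variance filter gave 1 higher (5100 of 22518). Gene means gave 47 of 59 lower (2606 of all 18193). With 1 array left out, 0 to 1 were higher (3659 to 4732 of all 45037) and 66 to 79 lower (3456 to 5562). Under EPO, 2 were higher and 90 lower (10.3% and 12% of all). Quantile normalization gave 4 higher (5730 of all 45037), and a fold of at least 1.5 gave 1 higher (3852). Gene means gave 0 higher and 54 lower (2474 and 2850 of all 18193). With 1 array left out, 2 were higher (3819 to 5049 of all 45037) and 80 to 93 lower (3996 to 9682).

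Class medians are given in the order large, small and nucleolar. For EPO in stage E1 they were 0.56, 0.53 and 0.46 without the 19 genes picked out earlier, 0.59, 0.42 and 0.33 after quantile normalization, and 0.79 to 0.96, 0.49 to 0.74 and 0.40 to 0.61 with 1 array left out. For EPO in stage E2 they were 0.26 and 0.42 for the subunits without the 19 genes, 1.01, 1.16 and 0.23 after quantile normalization, and 0.43 to 0.47, 0.54 to 0.63 and 0.072 to 0.19 with 1 array left out. Those of the interaction reversed after quantile normalization (0.44, 0.56 and 0.0088), which by its construction gives the arrays of both stages one spread. With 1 array left out, the interaction medians ran from -0.28 to -0.13, -0.25 to -0.056 and -0.37 to -0.21. Without EPO, the stage medians of the subunits were -0.77 and -0.78 without the 19 genes and -1.49 and -1.30 after quantile normalization, and all 3 ran from -1.05 to -0.85, -0.98 to -0.78 and -1.08 to -0.92 with 1 array left out. Under EPO they were -0.93 for the large subunit without the 19 genes, -1.41 for the small subunit over gene means, -0.65, -0.45 and -1.02 after quantile normalization, and -1.15 to -1.06, -1.06 to -0.89 and -1.46 to -1.34 with 1 array left out.

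Among single genes with values near 0 in stage E1, Bms1 (-0.0024) and Ddx21 (-0.039) reversed after quantile normalization, and Npm1 (0.022) without unchallenged array 2, where leaving out 1 array gave -0.12 to 0.022. The interaction of the Ddx18 probe set (-0.49) reversed to 0.23 after quantile normalization. The cause of the other differences was not tested. The 3 or 4 arrays of a group limit what can be called.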
